A study of Homo sapiens with 10 samples.

Results

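Anti-FLAG chromatin immunoprecipitation followed by sequencing (ChIP-seq) of the corepressor RCOR2 was compared between Kelly cells in which the tagged protein was induced and the same kind of cells left uninduced. Peaks of the 2 induced and the 2 uninduced libraries on chromosomes 1 to 22 and X were merged where they overlapped by at least 1 bp, which gave 100041 regions. A region was called induced-only when both induced libraries and no uninduced library had a peak there (26490 regions), shared when both induced and at least 1 uninduced library had one (9186 regions), and uninduced-only when only uninduced libraries had one (6305 regions). These 41981 regions are the members described here. The remaining regions had a peak in only 1 of the induced libraries, 4750 with and 53310 without an uninduced peak. The classes were made from the presence of peaks alone, so the presence of a peak in a class is not a finding.

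The series holds 10 ChIP-seq libraries from Kelly, an adrenergic neuroblastoma cell line with amplified MYCN, in 5 groups of 2. The induced group carries FLAG-tagged RCOR2 and received 2 µg/mL doxycycline for 48 h. The uninduced group carries the same construct, was not treated, has the same 48 h time label and was precipitated with the same anti-FLAG antibody. RCOR1 and RCOR3 were precipitated with their own antibodies from untreated Kelly cells, and LSD1 from an untreated Kelly derivative that carries a doxycycline-driven shRNA against RUNX1T1. Whether the FLAG line is a clone or a pool, or which promoter drives the transgene, is not stated by the labels. The labels do not say that replicates are separate cultures, so the p-values measure only the spread between these libraries, which may be technical.

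RCOR1, RCOR2 and RCOR3 are the mammalian CoREST proteins, scaffolds that join the histone demethylase LSD1 (gene symbol KDM1A) to the histone deacetylases HDAC1 and HDAC2. DNA-binding factors such as REST, SNAI1, GFI1 and INSM1 bring this complex to chromatin, where it removes methyl groups from histone H3 lysine 4 and acetyl groups from histone tails. In neural crest derived cells it is known for restraining and shaping neuronal gene programs. A doxycycline-inducible construct can be expressed at a low level without doxycycline, and an antibody can also precipitate chromatin in the absence of its tag. Uninduced libraries made with the same antibody are therefore the usual reference for such an experiment.

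The promoters of 5 genes show what sequence lay under strong shared and induced-only regions, with no uninduced-only promoter among them. They span 250 bases before to 50 bases after the gene start, from RefSeq on GRCh38.p14, 5′ to 3′ on the gene's strand. Capitals mark 3 short words on both strands, which are GGGCGG (an Sp-type GC box), TGCGCA (the core of an NRF1-type site) and TGACG (a CRE core). The first pair lies in shared regions, the next pair in induced-only regions, and the last had no region of any class and is printed as a contrast.

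TMEM250 (chr9:136118826-136119125, minus strand, shared): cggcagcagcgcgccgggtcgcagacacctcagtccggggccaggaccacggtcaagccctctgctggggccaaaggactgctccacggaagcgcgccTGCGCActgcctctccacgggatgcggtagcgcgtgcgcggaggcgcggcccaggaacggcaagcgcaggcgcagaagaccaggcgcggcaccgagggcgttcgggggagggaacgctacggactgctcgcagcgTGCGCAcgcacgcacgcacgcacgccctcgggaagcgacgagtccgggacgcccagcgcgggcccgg
ABI2 (chr2:203328144-203328443, plus strand, shared): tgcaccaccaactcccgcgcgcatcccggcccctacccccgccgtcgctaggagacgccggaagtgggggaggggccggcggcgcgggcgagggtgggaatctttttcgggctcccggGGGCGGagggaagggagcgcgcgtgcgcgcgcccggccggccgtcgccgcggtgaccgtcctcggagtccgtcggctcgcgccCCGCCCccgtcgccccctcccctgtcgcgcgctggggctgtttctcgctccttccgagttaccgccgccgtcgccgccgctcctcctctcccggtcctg
ATRN (chr20:3470768-3471067, plus strand, induced-only): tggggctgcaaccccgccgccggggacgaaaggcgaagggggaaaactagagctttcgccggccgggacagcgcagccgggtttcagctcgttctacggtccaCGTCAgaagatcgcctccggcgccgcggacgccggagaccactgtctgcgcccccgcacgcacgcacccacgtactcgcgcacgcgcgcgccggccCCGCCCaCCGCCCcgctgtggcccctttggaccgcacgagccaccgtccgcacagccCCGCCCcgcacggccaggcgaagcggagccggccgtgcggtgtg
FDX1 (chr11:110429698-110429997, plus strand, induced-only): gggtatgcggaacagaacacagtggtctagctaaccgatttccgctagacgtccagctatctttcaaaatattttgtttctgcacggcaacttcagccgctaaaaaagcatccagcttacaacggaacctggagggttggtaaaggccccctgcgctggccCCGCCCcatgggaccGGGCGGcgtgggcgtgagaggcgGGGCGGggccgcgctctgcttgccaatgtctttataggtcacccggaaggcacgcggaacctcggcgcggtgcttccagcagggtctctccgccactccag
ALB (chr4:73404037-73404336, plus strand, no region): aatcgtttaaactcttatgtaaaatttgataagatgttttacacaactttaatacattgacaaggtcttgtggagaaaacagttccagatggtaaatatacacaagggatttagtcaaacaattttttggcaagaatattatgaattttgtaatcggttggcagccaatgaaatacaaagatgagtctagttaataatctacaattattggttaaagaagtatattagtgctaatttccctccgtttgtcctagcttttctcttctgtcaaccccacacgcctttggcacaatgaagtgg

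The TMEM250, ABI2 and ATRN promoters were rich in CpG, with 45, 50 and 47 CpG dinucleotides in 300 bases, and FDX1 had 24. ALB, which encodes serum albumin and is silent outside the liver, had 4. GGGCGG occurred 2 times in ABI2, 3 times in ATRN and 3 times in FDX1, and TGCGCA occurred 2 times in TMEM250. A GC-rich start with GC boxes was thus present in ABI2, ATRN and FDX1, while the shared TMEM250 promoter had no GGGCGG.

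The number of peaks per library separated the induced from the uninduced group. The log2 number of peaks used was 16.04 ± 0.24 (SD, n = 2) in induced and 13.60 ± 0.39 (SD, n = 2) in uninduced libraries, a difference of 2.44. The exact two-sided permutation p was 0.333, the smallest that 2 libraries against 2 can give. Read depth is unknown because no read counts were used, and a deeper library yields more peaks. A peak or region was counted at a gene end when it came within 2 kb of the start or stop of a protein-coding gene. The share of a library's peaks at gene ends was 28.1% and 33.7% in the induced replicates 1 and 2. It was 43.5% in uninduced replicate 1 and 18.6% in uninduced replicate 2. The uninduced pair thus enclosed the induced pair, and the group means differed by -0.09 percentage points (exact permutation p = 1). The sign of that difference changed with the library left out, as the last section gives.

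The 2 uninduced libraries were not alike, and this bears on every class that uses them. They had a peak in common in 3403 regions, which is 36.0% of the regions with a peak of replicate 1 and 24.0% of those with a peak of replicate 2. The induced libraries had 35676 regions in common, 48.7% and 63.6% of their regions. Of the 9186 shared regions 3939 had a peak of uninduced replicate 1 only, 2824 of replicate 2 only and 2423 of both. Of the 6305 uninduced-only regions 1553 came from replicate 1 alone and 4587 from replicate 2 alone, and 165 were found in both.

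Shared regions lay at gene ends more often than induced-only regions, and uninduced-only regions rarely did. A gene end was within reach of 54.6% of shared regions (95% Wilson interval 53.6 to 55.6%), 39.5% of induced-only (38.9 to 40.1%) and 4.92% of uninduced-only regions (4.41 to 5.48%). These intervals cover counting error only. The order of shared and induced-only regions rested on uninduced replicate 1. Shared regions with a peak of replicate 1 only were at gene ends in 70.7% and those with a peak of replicate 2 only in 34.5%. The difference of 15.1 percentage points between the classes became -1.04 without uninduced replicate 1 and 24.6 without uninduced replicate 2. It was also -24.1 when 50% reciprocal overlap with the induced region was asked of the uninduced peak. That rule can be met only by narrow induced regions, since shared regions were 1012 bp wide at the median and uninduced peaks 241 and 228 bp. Classes made from the libraries numbered 1 alone and from those numbered 2 alone gave differences of 28.0 and 7.20 points. Crossed pairs gave 62.0% of shared against 30.2% of induced-only regions at gene ends for induced replicate 2 with uninduced replicate 1, and 24.8% against 28.7%, the reverse order, for induced replicate 1 with uninduced replicate 2. With equal numbers of top peaks from each library the difference was 2.85 points.

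Away from genes, the classes differed most in long stretches of the genome that hold no gene of the RefSeq table. There were 30 such stretches of at least 1 Mb, 177 Mb in all. Such stretches include centromeres, where the assembly holds arrays of repeats and reads of near-identical copies cannot be placed with certainty. The stretches held 49.5% of uninduced-only regions (95% Wilson interval 48.2 to 50.7%), 10.2% of shared regions (9.62 to 10.9%) and 0.340% of induced-only regions (0.277 to 0.417%). Of the regions with a peak in 1 induced library and an uninduced peak they held 78.8%. Per library they took 12.02% and 2.06% of the induced peaks and 28.1% and 43.2% of the uninduced peaks, so these shares did not overlap. The means differed by -28.6 percentage points (exact permutation p = 0.333), for stretches chosen after seeing values. In number the stretches held 9094 and 1230 induced and 2884 and 6462 uninduced peaks, and these ranges overlap. Among the libraries of the other proteins RCOR3 replicate 2 had 30.4% of its peaks there, RCOR3 replicate 1 had 2.51%, and the other 4 had 0.587 to 5.92%. Without these stretches, gene ends took 60.8% of shared, 39.6% of induced-only and 9.73% of uninduced-only regions.

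**Figure D1:**
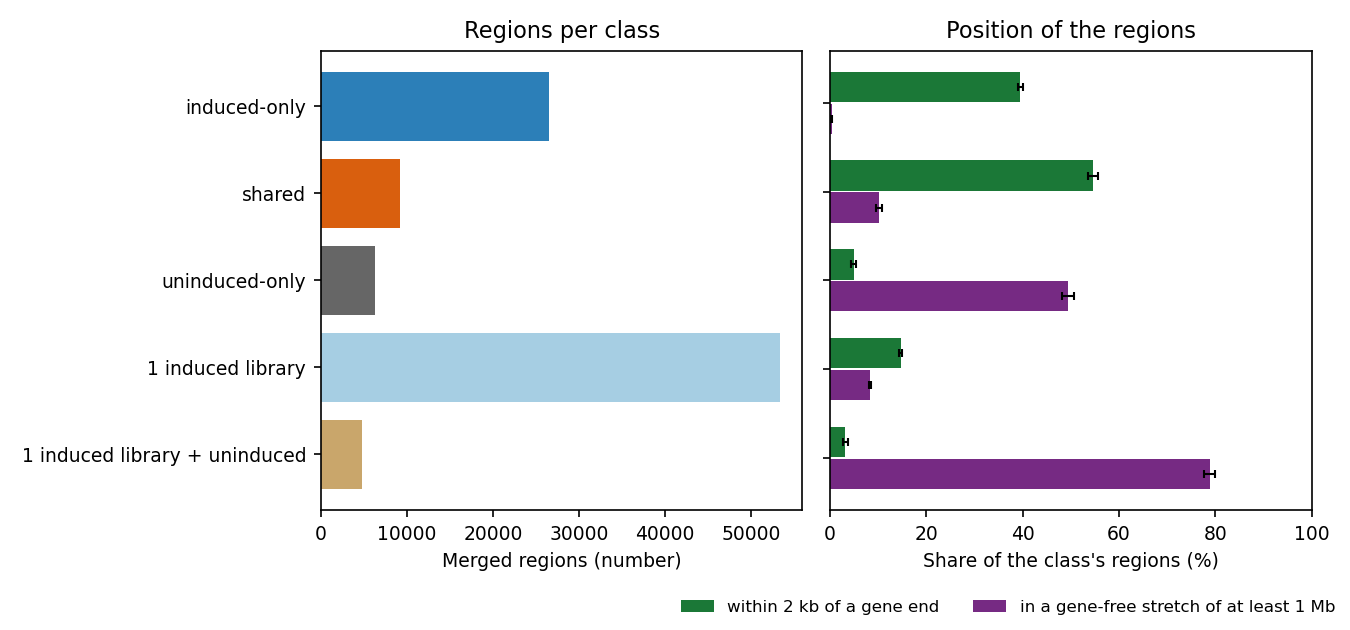
Number of merged regions in each class (left, bars) and share of the class's regions in percent (right) that lie within 2 kb of a gene end or in a gene-free stretch of at least 1 Mb, with 95% Wilson intervals. Gene ends took 54.6% of shared and 39.5% of induced-only regions, and gene-free stretches took 49.5% of uninduced-only regions and 78.8% of regions with 1 induced library and an uninduced peak.

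Summits of all regions were placed by their signed distance to the nearest start of a protein-coding gene, for genes whose strand the promoter table gives. Shares are of all regions of the class with a peak of that library, at gene ends or not. In shared regions 29.4% and 32.0% of the summits of the induced replicates 1 and 2 lay within 250 bp of a start, against 14.8% and 16.4% in induced-only regions. The uninduced summits of the same shared regions differed between libraries. Replicate 1 had 36.6% of its summits within 250 bp of a start, with a median position 9 bp upstream among summits within 2 kb. Replicate 2 had 16.96%, with a median position 108 bp downstream. Its 100 bp bin with the most summits began 100 bp downstream of the start, while that of uninduced replicate 1 and of induced replicate 2 began 100 bp upstream. Of uninduced-only regions 0.233% and 0.189% had a summit within 250 bp of a start.

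**Figure D2:**
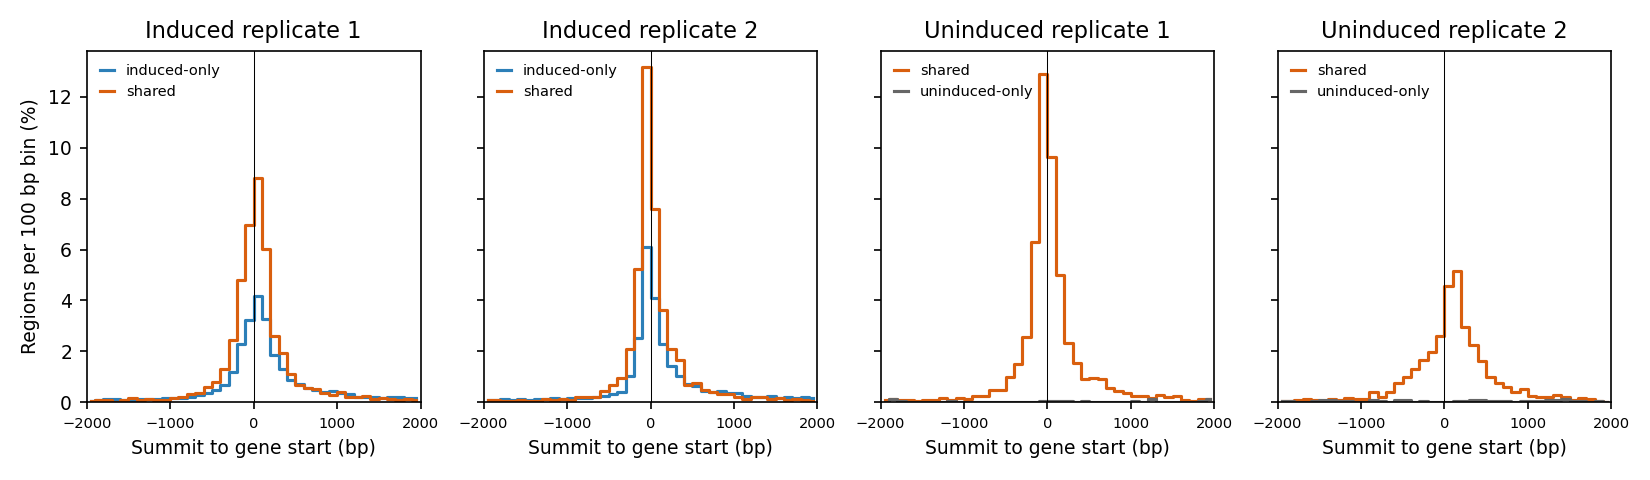
Distance in bp from the peak summit to the nearest start of a protein-coding gene (x axis, negative is upstream) against the percent of the class's regions per 100 bp bin (y axis), for each FLAG library. Shared regions peaked at the start in both induced libraries and in uninduced replicate 1, uninduced replicate 2 peaked 100 to 200 bp downstream at 5.15%, and uninduced-only regions stayed near 0.

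Summits of shared regions were then compared between libraries. The regions were made by merging overlapping peaks, so nearness of their summits follows in part from that rule and is not a finding. At gene ends the induced replicate 1 summit and the uninduced replicate 1 summit were 96 bp apart at the median, and those of the 2 induced libraries were 73 bp apart. The uninduced replicate 2 summit was 161 bp from that of induced replicate 1 and 201 bp from that of uninduced replicate 1. Away from gene ends the medians were 45 bp between the induced libraries and 41 to 56 bp for every pair that included an uninduced library. The displaced summits of uninduced replicate 2 were therefore at gene ends.

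The strength of an induced peak, given as the authors' fold enrichment over local background, was tied to whether an uninduced peak was found there. In induced replicate 1 the median fold was 7.19 in induced-only and 15.2 in shared regions, and in induced replicate 2 it was 8.51 and 22.9. As ranks within the library's own list, the medians were the 67.8th and 90.3rd percentile in replicate 1 and the 62.5th and 85.3rd in replicate 2. Folds of different lists are not compared here. Regions with a peak of both induced libraries were then cut into deciles of fold. In the top decile of induced replicate 1, with folds from 20.7 to 143, an uninduced peak was present in 74.6% of 3568 regions. In the third decile it was present in 6.87%. For induced replicate 2 the top decile had 68.9% and the second had 11.6%. The rise was present at gene ends (from 6.97% in the second to 74.9% in the top decile of replicate 1) and elsewhere (7.95% to 73.8%). Strong induced regions thus held an uninduced peak in most cases wherever they lay.

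The lowest decile broke the order. It held an uninduced peak in 13.7% of regions by replicate 1 and in 26.0% by replicate 2, above the decile next to it in both. Uninduced replicate 2 supplied most of these, with peaks in 12.4% and 24.7% of the lowest decile, against 3.42% and 9.02% for uninduced replicate 1. By induced replicate 2, gene-free stretches held 11.97% of the lowest decile. Without them its share with an uninduced peak was 16.7%, and that of the lowest decile by replicate 1 was 11.8%. Folds in the lowest decile reached up to 4.64 and 4.74 in the induced replicates. Within 2 Mb of MYCN 308 shared regions had median folds of 2.97 and 2.50, and uninduced replicate 2 had a peak in 305. How many of these lay in the lowest decile was not counted. With the same number of highest peaks from every library (10253 each), induced-only regions were 43.0% of the regions with both induced libraries, in place of 74.3% with all peaks. The median rank difference between shared and induced-only regions was then 3.34 in place of 22.5 percentile points in replicate 1. Ranks were those in the full list. Keeping only the top peaks narrows their range in advance, so the smaller difference is not a finding.

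**Figure D3:**
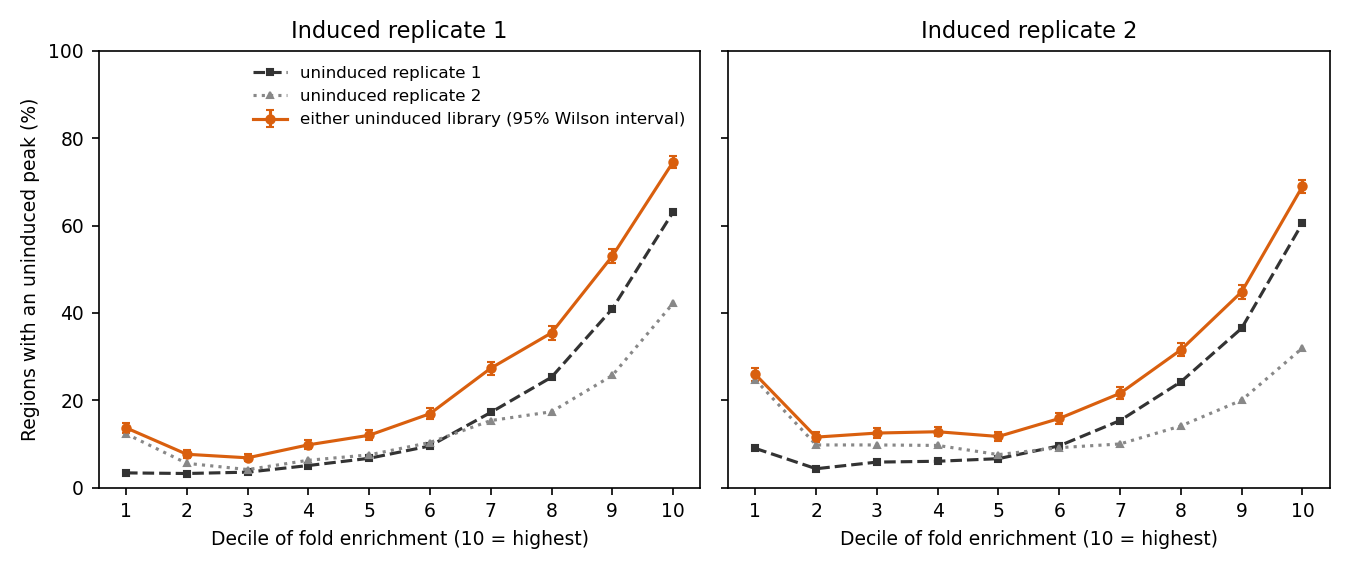
Percent of regions with peaks of both induced libraries that also hold an uninduced peak (y axis), by decile of the authors' fold enrichment in that induced library (x axis, 10 is highest). The share reached 74.6% and 68.9% in the top deciles, and uninduced replicate 1 gave more of it there than replicate 2.

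The strongest shared regions, ranked by the lower of their 2 within-library fold percentiles, carried folds of 62.5 to 143 and 91.4 to 121 in the induced replicates. The first lay at chr1:199282-200640 in the WASH9P pseudogene (76.9 and 113 induced, 8.84 and 9.38 uninduced), and the next at chr12:30806-32133 in WASH8P. Both are near chromosome ends in families of near-identical copies, so their placement is uncertain. PUM2, an RNA-binding repressor of translation, had folds of 68.2 and 102 in the induced and 6.69 and 4.74 in the uninduced replicates over chr2:20349938-20351533. TMEM250 had 64.1 and 108 induced and 7.78 and 8.02 uninduced over chr9:136117403-136119885. ABI2, a component of the WAVE complex that drives actin assembly, had 62.5 and 97.3 induced, 4.28 in uninduced replicate 1 and no peak in uninduced replicate 2. The widest of the 10 lay at the start of RCOR3 itself. RCOR1 regions overlapped 9 of these 10 regions, RCOR3 regions 6 and LSD1 regions none.

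The strongest induced-only regions had folds of similar rank with no uninduced peak. ATRN, which encodes attractin, had 40.9 and 89.3 over chr20:3470315-3471665. GAL3ST2, a sulfotransferase gene, had 82.98 and 77.1 over chr2:241804779-241805777. FDX1, the electron carrier of mitochondrial steroid synthesis, had 34.9 and 73.4 over chr11:110429627-110430711. The region between PUF60, a splicing factor gene, and SCRIB, a cell polarity gene, had 35.4 and 79.7. One region of the 10 lay 63.9 kb from the developmental regulator PAX2 (40.5 and 72.7). Their ranks ran from the 99.2nd to the 99.7th percentile, while those of the 10 shared regions were all above the 99.8th. RCOR1 regions overlapped 6 of the 10 and RCOR3 regions 1.

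Ranked by the uninduced libraries, other shared regions came first. The strongest lay inside PRKCA, which encodes protein kinase C alpha, at chr17:66798295-66799677, with folds of 92.5 and 80.1 in the induced and 23.1 and 24.7 in the uninduced replicates. Of these 10 regions 7 lay in gene-free stretches. A region of 22440 bp at chr4:190070854-190093293 covered repeated DUX4L pseudogenes, near-identical copies whose reads cannot be placed with certainty. RTEL1-TNFRSF6B at chr20:63693244-63693869 had 37.3 and 86.7 induced and 24.1 and 13.6 uninduced. All 3 of the regions outside gene-free stretches were strong after induction too.

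Uninduced-only regions were narrow and mostly outside genes. Their median width was 196 bp, against 597 bp for induced-only and 1012 bp for shared regions. A region is the union of its merged peaks, and the classes join peaks of different numbers of libraries. The order of widths thus follows in part from the class rule. Of the uninduced-only regions 74.2% overlapped neither a protein-coding gene nor its ends. The 10 found in both uninduced libraries with the best lower rank all lay in gene-free stretches, with folds of 6.999 to 15.7 in replicate 1 and 6.41 to 8.41 in replicate 2. In replicate 1 alone the 10 highest folds, 38.1 to 87.5, were all in the stretches chr11:50420632-54591479 and chr7:57868450-60991901. The first of these held 433 uninduced-only, 5 shared and no induced-only regions, and its highest fold was 7.95 and 6.21 in the induced replicates and 7.65 in uninduced replicate 2. In the second, which held 174 uninduced-only, 35 shared and 8 induced-only regions, the highest folds were 43.9 in uninduced replicate 1, 14.2 in uninduced replicate 2 and 19.4 and 10.8 in the induced replicates.

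In uninduced replicate 2 the strongest uninduced-only peaks lay inside RCOR3, the paralogue of the tagged gene. This locus was singled out after its values were seen. Within the gene (chr1:211259366-211316385) replicate 2 had peaks at chr1:211289138-211289398 (fold 13.03), chr1:211313426-211313815 (12.9), chr1:211312694-211313006 (9.83) and chr1:211276255-211276432 (8.23). They ranked 1, 2 and 5 among the uninduced-only peaks of that library for the first 3. None of the other 9 libraries of the series had a peak in any of the 4. The start of RCOR3, in contrast, was a shared region with folds of 78.6 and 96.5 in the induced and 5.88 and 10.3 in the uninduced replicates, and it overlapped peaks of all 4 RCOR1 and RCOR3 libraries.

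The RCOR2 gene on chromosome 11, from which the tagged protein takes its name, held 3 shared regions. At chr11:63911593-63912583 the folds were 60.9 and 86.7 induced and 6.22 and 5.66 uninduced, with no peak in any of the 6 libraries of the other proteins. At chr11:63913688-63914913 they were 14.9 and 12.2 induced and 6.999 and 7.08 uninduced, again in no other library. At chr11:63915956-63918694 they were 29.9 and 56.9 induced and 5.44 and 6.13 uninduced, and both RCOR1 libraries and RCOR3 replicate 1 had peaks too. Reads of the integrated RCOR2 construct and of the gene cannot be told apart in these lists. At the RCOR1 gene start the region was induced-only, with folds of 24.9 and 30.3.

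Shared regions met regions of RCOR1 and RCOR3 more often than induced-only regions did. RCOR1 regions, defined like RCOR3 and LSD1 regions by peaks of both libraries of the protein, overlapped 50.4% of shared (95% Wilson interval 49.4 to 51.5%), 16.8% of induced-only (16.3 to 17.2%) and 1.67% of uninduced-only regions. RCOR3 regions overlapped 21.6%, 7.27% and 0.508%. The differences between shared and induced-only regions, 33.7 and 14.3 percentage points, were 34.7 and 32.6 points for RCOR1 and 13.9 and 17.03 points for RCOR3 when classes were made from the libraries numbered 1 and from those numbered 2. At gene ends RCOR1 reached 59.9% of shared and 19.9% of induced-only regions. Shared regions were also wider and stronger. With every peak set to 500 bp the differences were 30.9 points for RCOR1 and 15.02 points for RCOR3, and with equal numbers of top peaks, where the rank difference was 3.34 and 3.22 percentile points, they were 26.9 and 15.9 points.

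With 50% reciprocal overlap the RCOR1 difference fell to 9.26 points and the RCOR3 difference to 6.93 points. Seen from the other side, 35.3% of the 13511 RCOR1 regions and 29.8% of the 7175 RCOR3 regions held a shared region, while 32.7% and 27.1% held an induced-only region. Uninduced-only regions were in 0.703% and 0.446%. The antibodies to RCOR1 and RCOR3 were used without induction and without the FLAG antibody.

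LSD1 followed another pattern. Its regions overlapped 9.04% of shared (95% Wilson interval 8.47 to 9.64%), 6.13% of induced-only (5.85 to 6.43%) and 1.70% of uninduced-only regions, and both FLAG classes met it mainly away from gene ends. Elsewhere than gene ends it overlapped 15.5% of shared and 8.81% of induced-only regions, and at gene ends 3.69% and 2.03%. The difference of 2.90 percentage points between the classes rested on uninduced replicate 2 and on regions near MYCN. It was 0.561 without the window of 2 Mb either side of that gene. It was 0.782 when each library gave the same number of top peaks and 0.883 with peaks set to 500 bp. It was -3.64 without uninduced replicate 2 and 8.36 without uninduced replicate 1, and the pairs of libraries gave -1.57 and 8.83. Shared regions with a peak of uninduced replicate 2 only held an LSD1 region in 19.9% of cases, those with a peak of replicate 1 only in 2.41%. The shares by position and by uninduced library were not recomputed without the MYCN window. The LSD1 libraries came from another Kelly derivative, and line and protein cannot be told apart.

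**Figure D4:**
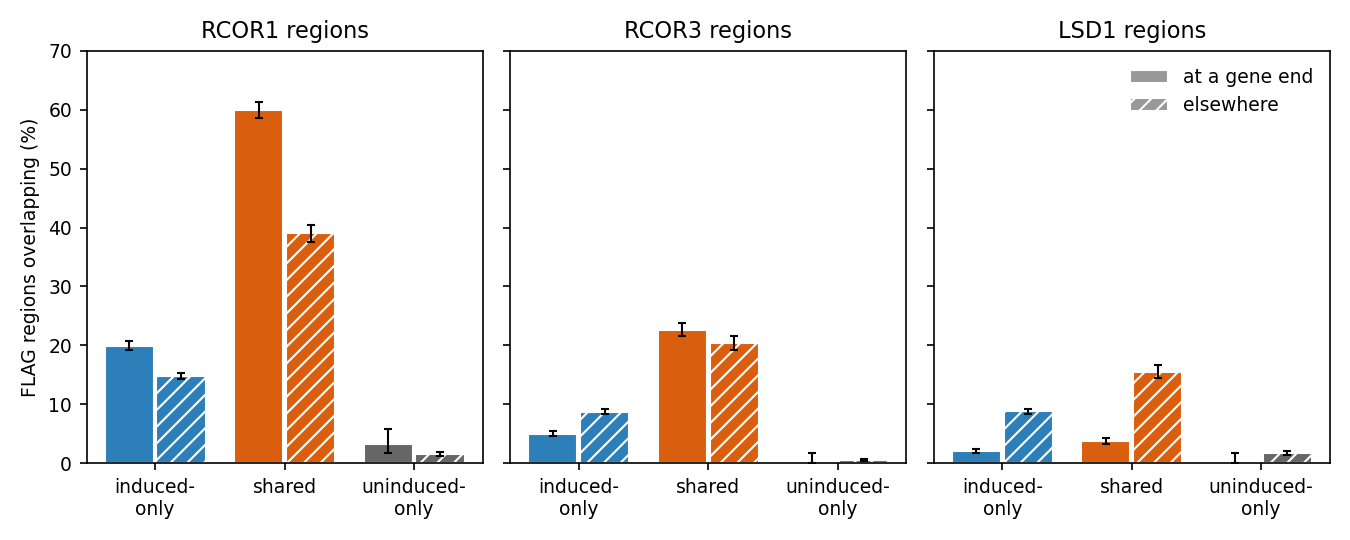
Percent of FLAG regions of each class (x axis) that overlap an RCOR1, RCOR3 or LSD1 region (y axis), at gene ends (plain bars) and elsewhere (hatched), with 95% Wilson intervals. RCOR1 reached 59.9% of shared regions at gene ends, and LSD1 was at 3.69% there and 15.5% elsewhere. Regions within 2 Mb of MYCN are included.

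Genes were assigned to the class of the region within 2 kb of either end, with shared before induced-only before uninduced-only. Over the 19974 protein-coding genes 5961 (29.8%) had a shared region, 8178 (40.9%) an induced-only region and 90 (0.451%) an uninduced-only region, while 4146 (20.8%) had no region. The 18 gene lists are read against these shares and were not tested. The number of genes with a shared region was 2698 without uninduced replicate 1 and 4942 without uninduced replicate 2.

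Housekeeping genes made up the lists with the largest shared part. Splicing factors had a shared region at 23 of 30 genes and an induced-only region at 6, chaperones at 19 and 4 of 25, and snoRNA host and translation factors at 13 and 5 of 18. HNRNPU, which encodes a nuclear RNA-binding protein, had folds of 34.1 and 72.3 in the induced and 4.97 and 4.85 in the uninduced replicates. PABPC1, the main cytoplasmic poly(A)-binding protein, had 44.3 and 116 induced and 7.39 and 5.66 uninduced. CALR, a chaperone of the endoplasmic reticulum, had 28.1 and 65.2 induced and 4.04 and 3.51 uninduced. HSPA1A, the stress-induced chaperone, had a peak in induced replicate 1 only, and its near-identical neighbour HSPA1B an induced-only region with folds of 6.09 and 5.85. The placement of reads between those copies is uncertain.

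Ribosomal protein genes were shared at 43 and induced-only at 27 of 76, oxidative phosphorylation genes at 16 and 14 of 31, and cell cycle genes at 16 and 14 of 30. Without uninduced replicate 1 the shared counts were 28 for ribosomal proteins, 6 for oxidative phosphorylation, 5 for cell cycle and 5 for p53 targets. Chaperones had 12, splicing factors 16 and snoRNA host and translation factors 9. All protein-coding genes were then shared at 13.5%, against 16.7% of cell cycle and 19.4% of oxidative phosphorylation genes. Without uninduced replicate 2 the counts, in the same order, were 32, 14, 13, 11, 13, 22 and 12, with 24.7% of all genes. RPL6 had folds of 27.1 and 69.1 induced and 6.22 and 7.47 uninduced, and NDUFA10, a subunit of respiratory complex I, had 40.4 and 87.2 induced and 8.17 in uninduced replicate 1 only. MDM2, the ubiquitin ligase that limits p53, led the p53 targets (11 shared and 8 induced-only of 20), with 34.3 and 88.8 induced and 4.24 and 6.60 uninduced.

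Developmental regulators showed the opposite division. HOX genes were shared at 6 and induced-only at 31 of 39, and other developmental regulators at 6 and 39 of 53. HOXD8 had an induced-only region with folds of 21.6 and 45.7, TBX20, a regulator of heart development, one with 26.9 and 40.5, and IRX3 one with 17.7 and 34.1. The 6 shared HOX genes lay in 4 regions. HOXC4, HOXC5 and HOXC6, whose annotated ends lie together, had 1 region with 78.6 and 62.7 induced and 4.67 and 5.66 uninduced. HOXD1 (18.8 and 27.6), HOXA3 (9.59 and 13.3) and HOXD13 (5.97 and 7.70) had an uninduced peak of replicate 1 only, with folds of 4.67, 7.39 and 5.06, and without that library 3 HOX and 2 other developmental genes were shared. The 39 HOX genes share regions, so the 31 genes rested on 28 regions. Among genes with both induced libraries, 16.2% of HOX and 13.3% of other developmental genes were shared, against 42.2% of all protein-coding genes and 82.6% of chaperones. The median rank of the induced peaks was the 59.6th percentile for HOX genes, the 75.8th for other developmental regulators, the 84.0th for chaperones and the 83.4th for all genes. Chaperones were thus near the rank of all genes. Splicing factors (91.4th) and snoRNA host and translation factors (87.9th), which also had large shared parts, ranked above it. Whether rank accounts for the shared part of a list was not tested.

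**Figure D5:**
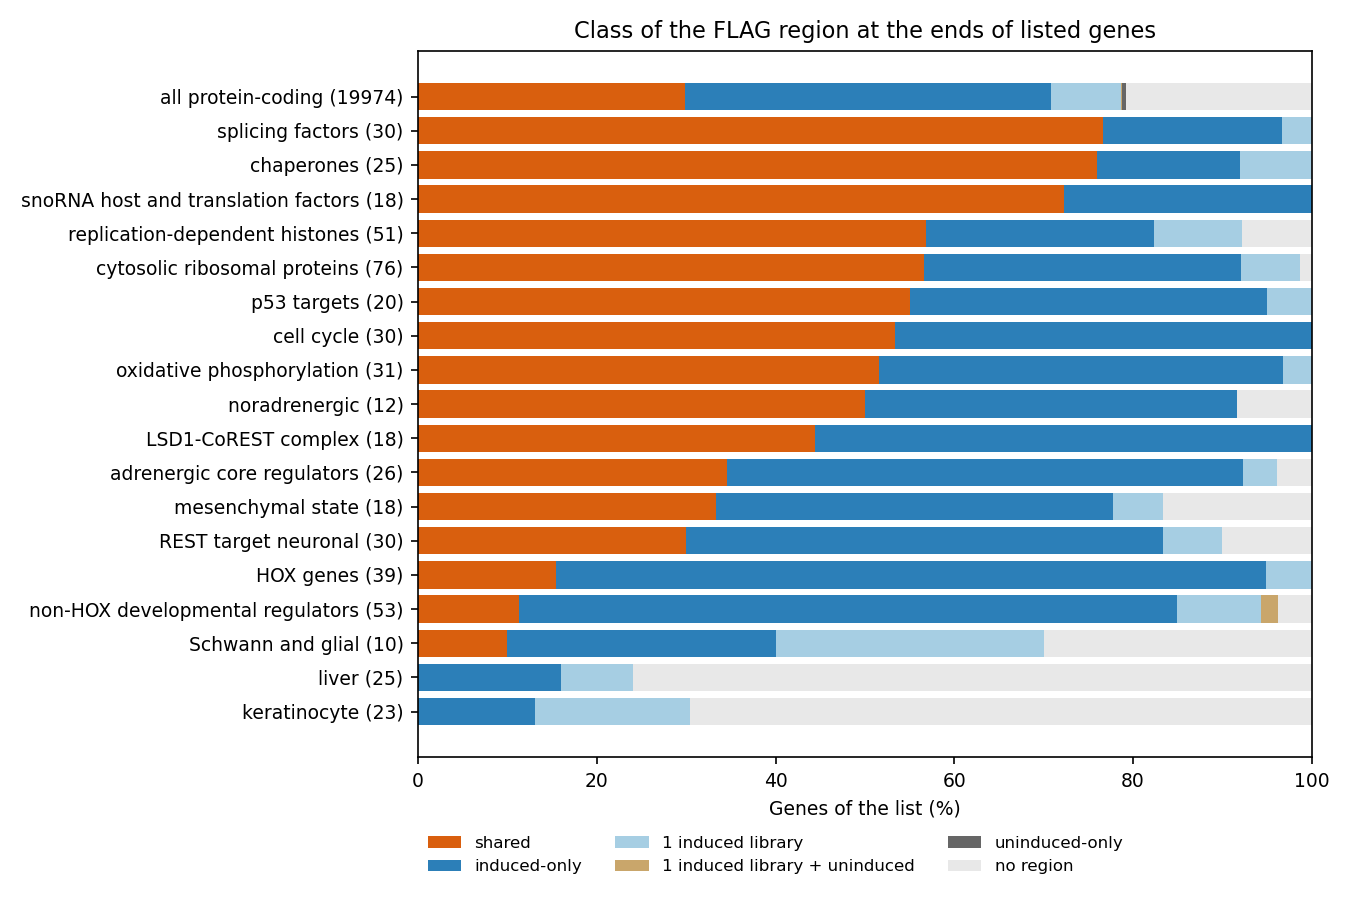
Percent of the genes of each list (bars, number of genes in brackets) by the class of the FLAG region at their ends, with all 19974 protein-coding genes at the top. Splicing factors and chaperones were shared at 76.7% and 76.0% and HOX genes at 15.4%, and liver and keratinocyte genes had no shared region.

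Replication-dependent histone genes, which are transcribed in S phase, were shared at 29 and induced-only at 13 of 51, from 15 and 9 distinct regions. They depended on the other uninduced library than most genes did. Without uninduced replicate 1 the shared histone genes numbered 27, and without uninduced replicate 2 they numbered 10. H1-4 and H2BC5 at chr6:26156051-26157414 had folds of 19.4 and 12.8 in the induced replicates, no peak in uninduced replicate 1 and 6.13 in uninduced replicate 2. H4C11 had 22.8 and 11.7 induced and 5.11 in uninduced replicate 2 only. H3C1 and H4C1 were the reverse, with 8.85 and 13.3 induced and 6.999 in uninduced replicate 1 only.

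Genes of the adrenergic core, the transcription factors that hold neuroblastoma cells in their sympathetic state, were nearly all bound after induction. Of 26 genes 9 were shared and 15 induced-only, which is 92.3% with peaks of both induced libraries against 70.8% of all protein-coding genes. HOX genes (94.9%), splicing factors (96.7%) and chaperones (92.0%) reached like shares. TBX2 had folds of 43.1 and 79.2 in the induced and 5.64 and 6.12 in the uninduced replicates. PHOX2A had 30.3 and 53.2 induced and 6.61 and 5.19 uninduced, and GATA2 30.7 and 47.2 induced and 4.81 and 4.77 uninduced. ISL1 had 23.2 and 22.3 induced and 5.06 in uninduced replicate 1 only, and SOX11 27.7 and 52.1 induced and 4.72 in uninduced replicate 2 only. Shared adrenergic genes also included PBX3, INSM2, HAND1 and MYCN, and HAND1 was weak at 3.48 and 4.33.

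The induced-only adrenergic genes were in part weaker. KLF13 had 21.6 and 51.6, and MEIS2 38.2 and 35.6. HAND2 had 9.77 and 14.9, and GATA3 5.51 and 3.98. GATA3 is a central member of the adrenergic circuit, and at its gene ends the induced peaks ranked at the 9.02nd percentile by the lower library. EYA1 had a peak in induced replicate 2 only and KLF7 had none at its ends. Of the 12 noradrenergic transmitter genes 6 were shared, among them SLC6A2, the noradrenaline transporter (49.3 and 63.3 induced, 4.28 and 3.82 uninduced), and TH, the first enzyme of catecholamine synthesis (12.7 and 13.3 induced, 6.61 in uninduced replicate 1 only).

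All 18 genes of the LSD1-CoREST list had peaks of both induced libraries at their ends, 8 in shared and 10 in induced-only regions. Of all protein-coding genes 70.8% had peaks of both. Among genes with both, the shared part was 44.4% in the list and 42.2% over all protein-coding genes, so it lay near that of all genes. Without uninduced replicate 1 the shared genes of the list were 5, and these parts were 27.8% and 19.1%. The catalytic and core subunits KDM1A (24.9 and 74.4 induced, 6.61 in uninduced replicate 1), HDAC1 (19.9 and 55.3, with 5.06 and 5.54 uninduced) and HDAC2 (33.5 and 57.6, with 5.41 in uninduced replicate 1) were shared. GFI1B, a recruiting factor, had 22.3 and 73.2 induced and 9.91 and 4.72 uninduced, and its region overlapped RCOR1, RCOR3 and LSD1 regions. The recruiting factors SNAI1 (27.1 and 64.9), REST (15.4 and 27.1), INSM1 (10.5 and 14.9) and GFI1 (9.87 and 9.57) were induced-only. RUNX1T1, whose shRNA is carried by the LSD1 cells, was induced-only with 41.5 and 35.6.

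REST target neuronal genes were shared at 9 and induced-only at 16 of 30, and 4 were shared without uninduced replicate 1. These shared parts, 30.0% and 13.3%, were close to the 29.8% and 13.5% of all protein-coding genes. CHGB, which encodes a granin of secretory granules, had 36.5 and 52.4 induced and 6.87 and 6.03 uninduced, and SYN1, a synaptic vesicle gene, was induced-only with 39.8 and 48.9. Mesenchymal-state genes were shared at 6 and induced-only at 8 of 18, with 3 and 4 shared without uninduced replicate 1 and without replicate 2. These shared parts were 33.3%, 16.7% and 22.2%, against 29.8%, 13.5% and 24.7% of all protein-coding genes. Liver and keratinocyte genes were mostly free of regions, and Schwann and glial genes less so. Liver genes had no shared and 4 induced-only regions among 25 genes, keratinocyte genes none and 3 among 23, and Schwann and glial genes 1 and 3 among 10, of which 3 had no region of any kind. Peak lists give positions and not expression, and regions were as frequent at HOX and housekeeping genes as at adrenergic genes, so these lists are no check of the labelled cell type.

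Among short non-coding genes, tRNA and snRNA genes were met by shared regions within 500 bp about as often, counted per gene, as protein-coding genes. The 500 bp were added to either side of the whole gene, so longer genes offered a wider target. The shares were not adjusted for gene length, so they do not compare frequency per base. Shared regions were rarer at snoRNA genes (36 of 1196, 3.01%) and miRNA genes (112 of 1911, 5.86%). A shared region lay at 140 of 443 tRNA genes (31.6%), 57 of 154 snRNA genes (37.0%) and 30 of 49 rRNA genes (61.2%), against 6437 of 19974 protein-coding (32.2%) and 1862 of 18177 lncRNA genes (10.2%). Induced-only regions were at 14.4% of tRNA, 11.04% of snRNA and 42.9% of protein-coding genes. Uninduced replicate 2 gave a peak at 133 of the 140 tRNA and 56 of the 57 snRNA genes, and replicate 1 at 64 and 18. For protein-coding genes within the same distance of the gene body, the order was reversed, with 3039 for replicate 2 and 5268 for replicate 1. The tRNA, snRNA and rRNA genes occur in clusters of near-identical copies, so their counts are uncertain and neighbouring genes share regions.

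Promoter composition did not separate shared from induced-only promoters, and separated both from unbound promoters. Windows were at hand for 15812 of the 19974 protein-coding genes (79.2%), under the 80% needed to speak for the gene classes, so the values describe these windows alone. Each window was classed by the region that overlapped it. GC content had a median of 67.7% in 4270 shared, 67.0% in 5911 induced-only and 49.3% in 4749 unbound windows, with 29, 27 and 4 CpG dinucleotides. GGGCGG was in 78.4%, 76.6% and 17.9% of these windows, against 58.5% of all. TGCGCA was in 16.4%, 13.1% and 2.59% (10.8% of all), and TGACG in 38.3%, 33.8% and 16.1% (29.4% of all). TATAAA was in 4.64%, 4.43% and 21.1% (9.64% of all). Words were searched on both strands, and a match is a description of the letters alone.

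Ordered by CpG count, the windows were split into 5 groups of equal size. Those of the lowest group (0 to 6 CpG) were shared in 0.506% and induced-only in 1.39%, and 96.2% had no region. In the second group 13.5% were shared and 29.3% induced-only. In the fourth group (26 to 34 CpG) 44.8% were shared and 49.7% induced-only, and in the highest group 42.0% and 54.4%. Among windows with both induced libraries, the shared part was 31.6% in the second group and 47.4% in the fourth. CpG content was thus tied closely to having a region at all and only loosely to its class.

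Around MYCN, which is amplified in Kelly cells, shared regions were frequent and weak. Within 2 Mb either side of the gene lay 308 shared regions, 3.35% of the class, against 12 induced-only regions (0.0453%) and 40 uninduced-only regions. Their median folds were 2.97 and 2.50 in the induced replicates, where shared regions in general had 15.2 and 22.9. Uninduced replicate 2 had a peak in 305 of the 308 and uninduced replicate 1 in 64. Without this window the induced-only share of regions with both induced libraries was 74.9%, and the LSD1 difference between shared and induced-only regions was 0.561 points in place of 2.90.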

How the data were processed

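The submitters' processing notes name BWA 0.7.17, MACS2, deepTools and the build GRCh38. Each deposited list holds the peaks of 1 library. The deposited fold enrichment, a ratio to background, and the deposited −log10 q-value were used as the authors gave them, and no listed FLAG peak was weaker than a q-value of 0.0499. Which control the peaks were called against was not stated. Read depth is unknown, so the number of peaks is the only measure of yield.

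Peaks on chromosomes 1 to 22 and X were merged (Python 3.11.15, pandas 2.3.3, SciPy 1.17.1) and classed as described. Gene ends are 2 kb either side of both ends of RefSeq protein-coding genes (GRCh38.p14). Shares carry 95% Wilson intervals, and library values were compared by exact two-sided permutation. Classes share their peaks, so class differences were not tested. Replicates are numbered per the labels. Peak names inside the FLAG lists carry other replicate letters, and only 1 letter is common to an induced and an uninduced list (induced replicate 2 and uninduced replicate 1). Named regions are the 10 of each class with the best lower fold percentile. Named genes are all of the adrenergic and LSD1-CoREST lists and up to 4 of each other list by the same rank, and not all are printed. Some genes of the lists are not reported here. RCOR gene loci, single peaks of 1 uninduced library and the gene-free stretches were chosen after seeing values. HSPA1A, HSPA1B, H1-4, H2BC5, H4C11, H3C1, H4C1 and the histone counts by library were also named after seeing values. Of 539 listed genes 533 were found by symbol. Members and lists were chosen with earlier results of these data known. Scripts were tested on simulated data. Alternatives were stricter peaks, equal peak numbers, other overlap and window rules, a replicate block and leaving out each library.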

Additional observations from a re-analysis of the deposited data

Results flagged for a closer look

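Peaks outside chromosomes 1 to 22 and X were used in no comparison. The induced libraries listed 3951 and 2683 such peaks and the uninduced libraries 482 and 551, so both induced libraries were above the controls in number. As a share of the list they were 4.96% and 4.30% in the induced and 4.49% and 3.55% in the uninduced replicates 1 and 2, and these ranges overlap.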

How the results depend on the processing

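Of 118 recomputed values 67 kept their sign and stayed within the spread between replicates, 44 moved further and 7 changed sign. For gene counts and ranks the bound was 1.5 times, and library values were judged by sign alone. The log2 peak number difference was 2.44 with a replicate block (exact p = 0.5, the smallest possible), and the gene-end difference per library -0.0901 with it (exact p = 1). The smallest possible permutation p without the block was 0.333. No call could be made either way, so the block could change none. The numbers pair the samples only by label: the correlation of their presence differences was -0.0609.

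The gene-end difference per library ranged from -12.5 to 12.4 without single libraries (positive without induced replicate 1, 2.71, and uninduced replicate 1), was 2.35 with −log10 q of at least 3 and 37.9 with equal peak numbers. The shared minus induced-only gene-end difference was -24.1 with 50% reciprocal overlap, 2.85 with equal peak numbers and ranged from -1.04 to 24.6 without single libraries. The LSD1 difference ranged from -3.64 to 8.36.

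The induced-only share of 74.3% was 75.5% with peaks set to 500 bp, 93.9% with 50% reciprocal overlap, 43.0% with equal peak numbers, 77.2% with stricter q, 93.2% with an uninduced peak asked of both libraries, 74.9% without the MYCN window, 76.2% without gene-free stretches, and 81.9 to 85.3% without single libraries. The gene-end share of uninduced-only regions was 8.80% with peaks set to 500 bp, 9.57% with equal numbers, 3.64% with both libraries required, 1.65% with 500 bp windows, 9.73% without gene-free stretches and 3.83 to 5.96% without single libraries. Their gene-free share was 57.9% with equal numbers, 57.1% with stricter q and 41.0 to 76.0% without single libraries.

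The RCOR1 difference was 30.9 with peaks set to 500 bp, 9.26 with 50% reciprocal overlap, 26.9 with equal numbers, 32.0 without the MYCN window, 37.2 with peaks of either library, 38.5 without gene-free stretches and 25.4 to 37.1 without single libraries. The RCOR3 difference was 6.93 with 50% reciprocal overlap, 11.9 with stricter q, 19.1 with both uninduced libraries required, 42.1 with peaks of either library and 10.9 to 15.7 without single libraries. Shared genes numbered 2698 to 5974 without single libraries, and induced-only genes 2668 with equal peak numbers. The rank difference was 3.34 and 3.22 with equal numbers, where keeping top peaks narrows the range of ranks in advance. Without single libraries it ranged from 17.2 to 34.2 in induced replicate 1 and from 10.3 to 38.5 in replicate 2. The causes were not tested. Gene-free stretches were chosen after seeing the data. Read depth was not known.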
